A study of Danio rerio with 18 samples.

Results

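The genes cebpd, pfkfb4b, angptl4, fkbp5 and klf9, known from vertebrates as targets of glucocorticoid hormones, were followed in a brain nucleus of zebrafish after surgery. They were chosen by name, with earlier results of these data known, and every array probe set annotated to one of them was taken. The gene lists below were chosen with the same knowledge, so ranks, p-values and shares do not come from a choice blind to the data. The 5 are among the 8793 genes that carry a single symbol on the array. The array held 2 probe sets for cebpd and 1 for each of the others. The dimmer cebpd probe set lay at the signal floor of 16 on all 18 arrays and gives no measurement, so all cebpd values below come from the brighter one.

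The tissue was the NMLF, which stands for nucleus of the medial longitudinal fascicle. Its neurons lie in the midbrain, send axons down the spinal cord and can regrow them past a lesion in zebrafish. It was cut out by laser capture 4 h, 12 h and 11 d after surgery from fish whose spinal cord had been transected and from sham-operated controls, which were called Injured and Control in the labels. Each of the 6 groups had 3 Affymetrix arrays, 1 per sample. The labels give no strain, sex or age, do not say whether tissue of several fish was pooled, and name no unoperated group, so every control fish had surgery too.

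Glucocorticoids, cortisol in fish, are released under stress and bind the glucocorticoid receptor, which enters the nucleus and switches genes on or off. Among the target genes studied here, fkbp5 encodes a co-chaperone that lowers the hormone affinity of the receptor and so forms a short feedback loop, and klf9 encodes a zinc finger transcription factor induced by the receptor. The other genes answer further signals as well. The transcription factor gene cebpd is also an acute-phase gene driven by cytokines, pfkfb4b encodes an enzyme that sets the level of a glycolysis activator and is also known from hypoxia, and angptl4 encodes a secreted inhibitor of lipoprotein lipase that in mammals is also induced by fatty acids and fasting.

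Signals below were quantile normalized across the 18 arrays, set to at least 16 and tested on the log2 scale, and group levels are geometric means of 3 arrays. Changes are log2 differences ± SE from one limma model of the 6 groups, with p-values adjusted by the Benjamini-Hochberg method over 15502 probe sets and a threshold of 0.05. The number of arrays limits the precision. In laser-captured tissue, fewer cells of a type and less RNA per cell cannot be told apart. The labelled tissue is neuronal, and none of the 15 measured neuron markers was at the floor on all 18 arrays, with summed signals between 24210 and 45210. The same held for 13 radial glia and astrocyte markers (sums of 26170 to 35540) and 6 oligodendrocyte and myelin markers (12650 to 25750). These values therefore do not show how much of the captured tissue was neuronal. Arrays of one group correlated at 0.936 to 0.984. A ratio of the GAPDH control probe sets, 3' end over 5' end, is a measure of RNA degradation. It was 3.15 or more on all 6 arrays at 12 h and at most 2.88 on the 12 arrays of the other times, so comparisons with the 12 h groups carry this difference.

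**Figure D1:**
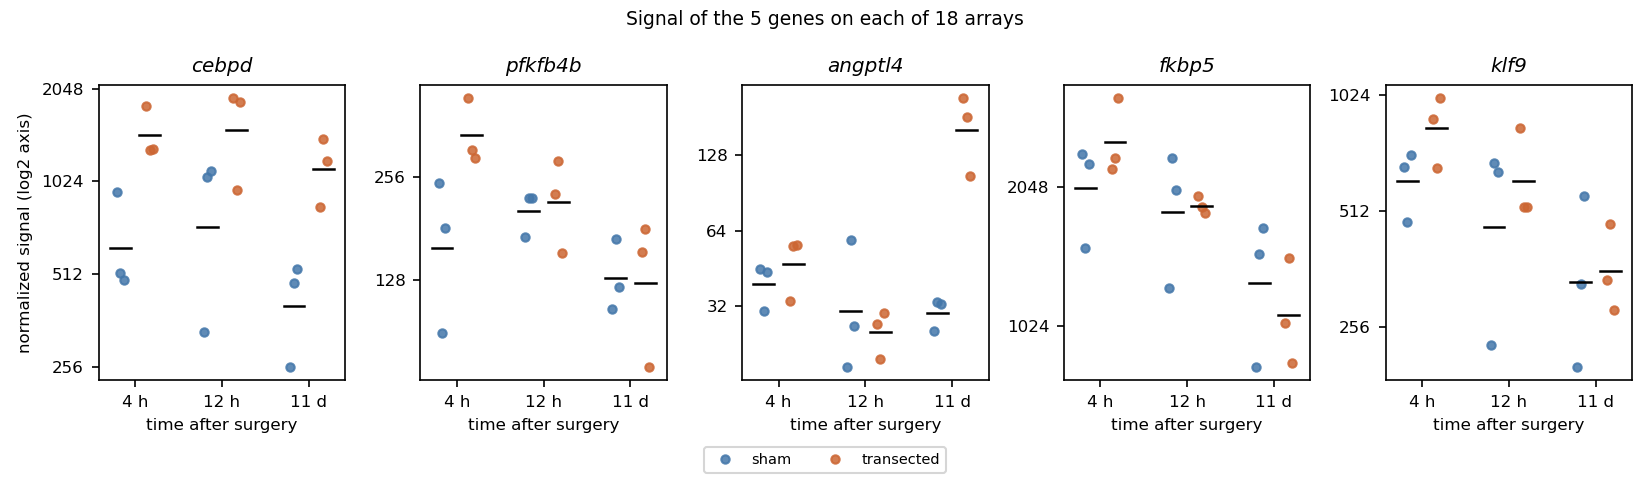
Normalized signal (log2 axis, a separate scale for each gene) of the 5 genes against time after surgery, with 1 point per array (sham blue, transected orange) and a bar at the geometric mean of 3 arrays. fkbp5 and klf9 had their highest group mean at 4 h and their lowest at 11 d in both treatments, cebpd was higher in the transected group at each time, pfkfb4b had its highest mean (338.5) in the transected group at 4 h, and angptl4 its highest (160.5) in the transected group at 11 d.

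The feedback gene fkbp5 had its highest means at 4 h and its lowest at 11 d in both treatments, while the ranges of sham and transected fish overlapped at each time. In sham fish fkbp5 gave 2421, 1512 and 2302 at 4 h, 1238, 2373 and 2017 at 12 h, while 11 d gave 833, 1464 and 1666. After transection it gave 2238, 2367 and 3198 at 4 h, 1955, 1853 and 1795 at 12 h, while 11 d gave 1037, 1436 and 847.8. Every transected array at 4 h and 12 h was thus above every transected array at 11 d, while in the sham fish the lowest array of each early time fell inside the range at 11 d. Its group means ran from 2568 (transected, 4 h) through 2035 (sham, 4 h), 1866 (transected, 12 h), 1810 (sham, 12 h) and 1267 (sham, 11 d) to 1081 (transected, 11 d), and the arrays of each group overlapped those of the next.

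Its difference between transected and sham fish was 0.34 ± 0.31 at 4 h, 0.04 ± 0.31 at 12 h and -0.23 ± 0.31 at 11 d. Averaged over the 3 times it was 0.05 ± 0.18 (limma adjusted p = 1), with a 95% interval from -0.33 to 0.44. An exact permutation of treatment labels within times (two-sided) gave p = 0.78. No transection effect on fkbp5 was detectable. The interval of the average leaves room for a mean difference of up to about 0.44 on the log2 scale. The 95% intervals at single times were wider, at -0.33 to 1.00 (4 h), -0.62 to 0.71 (12 h) and -0.90 to 0.44 (11 d).

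Within the sham fish alone, fkbp5 was 1.61-fold higher at 4 h than at 11 d (0.68 ± 0.31, limma adjusted p = 0.84) and 1.43-fold higher at 12 h (0.51 ± 0.31, adjusted p = 0.68). Both values rested in part on sham replicate 1 at 11 d, the lowest array, and were 0.38 and 0.21 without it. The 6 early sham arrays against the 3 late ones gave p = 0.11 in a two-sided exact permutation test, whose smallest possible p is 0.012. In the transected fish the same differences were 1.25 ± 0.31 at 4 h (limma adjusted p = 0.16) and 0.79 ± 0.31 at 12 h (adjusted p = 0.23). Comparisons of times in transected fish and over both treatments were added after the values had been seen, and they give no independent support. With sham and transected fish averaged, fkbp5 was 1.75-fold higher at 4 h and 12 h than at 11 d (0.81 ± 0.19, limma adjusted p = 0.056), and permuting times exactly within treatments gave p = 0.0013. The adjusted value was 0.029 when the dimmest 33.3% of probe sets were left out of the fit, where 3.02% of probe sets passed. All comparisons over both treatments, here and below, treat same-numbered sham and transected arrays as independent. Such arrays deviated together at 4 h and 11 d, so the SE and p of these comparisons may be too small.

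The transcription factor gene klf9 followed fkbp5 closely. Sham arrays gave 666.6, 479.2 and 713.1 at 4 h, 228.9, 681.2 and 646.9 at 12 h, while 11 d gave 201.2, 330.5 and 560.8. Transected arrays gave 888, 662.8 and 1006 at 4 h, 840.4, 524.5 and 523.2 at 12 h, while 11 d gave 338.6, 472.9 and 282. Again the transected arrays at 4 h and at 12 h did not overlap those at 11 d, the sham times overlapped, and the 2 treatments overlapped at every time. The klf9 means ran from 839.7 (transected, 4 h) through 613.2 (transected, 12 h), 610.7 (sham, 4 h), 465.5 (sham, 12 h) and 356.1 (transected, 11 d) to 334.1 (sham, 11 d), with overlap at each step.

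The averaged transection effect on klf9 was 0.32 ± 0.25 (limma adjusted p = 1, exact permutation p = 0.22), with a 95% interval from -0.24 to 0.87. Its separate values were 0.46 ± 0.44 at 4 h, 0.40 ± 0.44 at 12 h and 0.09 ± 0.44 at 11 d. At 4 h, arrays of equal replicate number differed by 0.41, 0.47 and 0.50, all higher after transection (limma adjusted p = 1 with these pairs as a block). The 12 h value rested on sham replicate 1, the array with the lowest signal of its group for all 5 genes, and was -0.11 without it. In sham fish klf9 was 1.83-fold higher at 4 h than at 11 d (0.87 ± 0.44, limma adjusted p = 0.84). The sham value at 12 h was 0.48 ± 0.44 above 11 d (adjusted p = 0.88), and early against late sham arrays gave an exact permutation p = 0.23. Without sham replicate 1 at 11 d these klf9 differences were 0.51 and 0.11, and without sham replicate 1 at 12 h the second was 0.99. Averaged over the treatments, klf9 was 1.79-fold higher at the early times (0.84 ± 0.27, limma adjusted p = 0.14), with an exact permutation p = 0.0082.

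**Figure D2:**
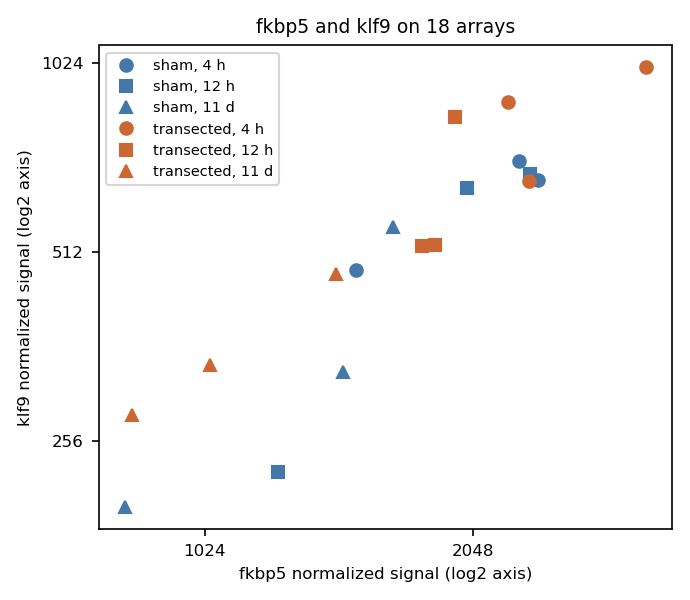
Normalized signal of klf9 against fkbp5 (log2 axes) on 18 arrays, blue for sham and orange for transected, with circles for 4 h, squares for 12 h and triangles for 11 d. The points rise together (Pearson r = 0.914), with arrays of both treatments intermixed.

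Across the 18 arrays the log2 signals of fkbp5 and klf9 correlated at Pearson r = 0.914 (Spearman rho = 0.905), and at 0.883 after the group means were taken out. Each was the gene nearest to the other among 5180 genes brighter than the median. The correlation was 0.94 over the 9 sham arrays and 0.941 over the 9 transected ones, 0.891 on the deposited scale, and 0.874 without the 2 arrays farthest from the median fkbp5 signal. The other pairs of the 5 genes correlated at -0.194 (angptl4 and fkbp5) to 0.763 (pfkfb4b and fkbp5). With the group means taken out, these other pairs correlated at 0.275 (cebpd and pfkfb4b) to 0.772 (cebpd and klf9). The 18 arrays share normalization and tissue collection, so the values describe likeness only. Next in likeness to both fkbp5 and klf9 was ssh2b, a slingshot phosphatase gene (0.879 with fkbp5 and 0.854 with klf9). Then came pik3r3a, which encodes a regulatory subunit of phosphoinositide 3-kinase, for fkbp5 (0.835) and anxa4, an annexin gene, for klf9 (0.82).

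The acute-phase gene cebpd had a higher mean in transected than in sham fish at each time. In sham fish it gave 947.6, 516.4 and 489.4 at 4 h, 330.5, 1061 and 1108 at 12 h, while 11 d gave 255.6, 479.5 and 533. After transection it gave 1803, 1293 and 1301 at 4 h, 1911, 957.1 and 1860 at 12 h, while 11 d gave 846.7, 1410 and 1188. All transected arrays exceeded all sham arrays at 4 h and at 11 d, and at 12 h the lowest transected array lay within the sham range. The 3 transected means, 1504 at 12 h, 1447 at 4 h and 1124 at 11 d, stood above the sham means of 729.8 (12 h), 621 (4 h) and 402.7 (11 d), again with overlap between neighbours in that order.

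The cebpd signal was 2.33-fold higher after transection at 4 h (1.22 ± 0.48, limma adjusted p = 1), 2.06-fold higher at 12 h (1.04 ± 0.48, adjusted p = 1) and 2.79-fold higher at 11 d (1.48 ± 0.48, adjusted p = 0.64). Without sham replicate 1 the 12 h value was 0.47. The average over times was 1.25 ± 0.27, or 2.38-fold, the 23rd smallest p of 15502 probe sets (limma adjusted p = 0.41, or 0.090 in the fit without the dimmest 33.3%). Permuting treatments exactly within times gave p = 0.00075 for cebpd, against a smallest possible 0.00025, unadjusted for the 5 genes tested this way. The average stayed between 1.06 and 1.36 as each array was left out in turn. The effect at 11 d exceeded the mean of the early effects by 0.35 ± 0.58 (limma adjusted p = 1), so a change of the cebpd effect with time was not detectable.

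Between sham times the cebpd differences did not pass, at 0.62 ± 0.48 for 4 h against 11 d (limma adjusted p = 0.88) and 0.86 ± 0.48 for 12 h against 11 d (adjusted p = 0.66). Their exact permutation p, early against late sham arrays, was 0.21. Without sham replicate 1 at 11 d the 2 differences were 0.30 and 0.53, without sham replicate 1 at 4 h the first was 0.32, and without sham replicate 1 at 12 h the second was 1.43. Over both treatments the early times were 0.57 ± 0.29 above 11 d (limma adjusted p = 0.39). Its nearest gene in the pattern over arrays was gadd45ga, a growth arrest and DNA damage response gene (Pearson r = 0.825), followed by si:ch73-335l21.4 (0.765) and the kinase gene vrk1 (0.739).

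The glycolysis regulator pfkfb4b stood highest in the transected fish at 4 h. Its transected arrays gave 435, 307.1 and 290.4 at 4 h, 228, 284.6 and 153.5 at 12 h, while 11 d gave 154.2, 179.5 and 71.11. The sham arrays gave 245.8, 89.51 and 181.5 at 4 h, 170.8, 222.2 and 222.1 at 12 h, while 11 d gave 105.2, 168.5 and 121.5. The groups did not overlap at 4 h, the transected group being higher, and they overlapped at both later times. After the transected group at 4 h (338.5) came transected (215.2) and sham (203.5) fish at 12 h, sham fish at 4 h (158.6), and sham (129.1) and transected (125.3) fish at 11 d. The first step in this order was free of overlap.

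At 4 h pfkfb4b was 2.13-fold higher after transection than after sham surgery (1.09 ± 0.41, limma adjusted p = 1). This value was 0.68 without sham replicate 2, the lowest array at that time. The transection effects on pfkfb4b at 12 h and 11 d were 0.08 ± 0.41 and -0.04 ± 0.41, and the average over times was 0.38 ± 0.23 (adjusted p = 1, exact permutation p = 0.17). Whether the 4 h effect differs from the later ones is not settled by the test made, in which the effect at 11 d minus the mean of the early effects was -0.63 ± 0.50 (limma adjusted p = 1). Of 38 measured genes listed for hypoxia and glycolysis, 12 were higher and 23 lower after transection at 4 h. Of those not tied 34.3% were higher, against 52.8% of all genes not tied. None passed, and 3 higher and 1 lower had an unadjusted limma p under 0.05, against 2.27% of probe sets.

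In sham fish alone pfkfb4b was 0.30 ± 0.41 higher at 4 h than at 11 d and 0.66 ± 0.41 higher at 12 h (limma adjusted p = 1 and 0.70, exact permutation p = 0.24 for early against late). The 4 h value ran from -0.019 without sham replicate 1 at 4 h to 0.71 without sham replicate 2. In the transected fish 4 h exceeded 11 d by 1.43 ± 0.41 (limma adjusted p = 0.25), without overlap. Both treatments together gave 0.79 ± 0.25 for the early times above 11 d (limma adjusted p = 0.13, exact permutation p = 0.0099). The paralogous gene pfkfb3, another isoform of the enzyme, differed between early times and 11 d by -0.77 ± 0.31 (limma adjusted p = 0.24). By array pattern pfkfb4b was most like fam107b (Pearson r = 0.868), then the annexin gene anxa4 (0.864) and the linker histone gene h1-10 (0.862).

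The lipoprotein lipase inhibitor angptl4 was dim everywhere except in transected fish at 11 d. There it gave 216.2, 180.9 and 105.8, against 25.49, 33.21 and 32.62 in sham fish at 11 d. At 4 h the sham arrays gave 45.17, 30.7 and 44.06 and the transected ones 33.73, 55.61 and 55.95. At 12 h they gave 18.4, 58.91 and 26.87 (sham) and 27.36, 19.85 and 30.14 (transected). The lowest transected array at 11 d was thus higher than each of the other 15 arrays, and the treatments overlapped at 4 h and 12 h. Below its mean of 160.5, those of the other groups ran from 47.17 (transected, 4 h) through 39.39 (sham, 4 h), 30.77 (sham, 12 h) and 30.22 (sham, 11 d) to 25.39 (transected, 12 h), and these neighbours overlapped.

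At 11 d angptl4 was 5.31-fold higher after transection (2.41 ± 0.39, 95% interval 1.56 to 3.26), the 10th smallest p of all probe sets. Its limma adjusted p of 0.063 missed the threshold over all probe sets. It was 0.0059 in the fit without the dimmest 33.3%, where 0.145% of probe sets passed, 0.0089 with a floor of 32 and 0.30 with arrays of equal replicate number as pairs. The floor of 32 raises several angptl4 arrays, with all transected ones at 12 h, to 1 value. It thereby narrows the spread by construction (SE 0.29). The 3 pairs differed by 3.08, 2.45 and 1.70. The gene stays above the dim limit without the transected 11 d arrays, at the 43.4th percentile of brightness. Leaving out single arrays moved the difference between 2.19 and 2.72. At 4 h the difference was 0.26 ± 0.39 and at 12 h -0.28 ± 0.39 (limma adjusted p = 1 for both). The 12 h value was 0.19 without sham replicate 2. The effect at 11 d exceeded the mean of the early ones by 2.42 ± 0.48 (limma adjusted p = 0.39).

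In sham fish no angptl4 difference between times was detectable. It was 0.38 ± 0.39 for 4 h against 11 d (95% interval -0.47 to 1.23) and 0.03 ± 0.39 for 12 h against 11 d (-0.82 to 0.87), with limma adjusted p = 0.95 and 1 and an exact permutation p = 0.64 for early against late. In transected fish angptl4 was 6.32-fold lower at 12 h than at 11 d (log2 change -2.66 ± 0.39, limma adjusted p = 0.0055), and the difference between 4 h and 11 d was -1.77 ± 0.39 (adjusted p = 0.11). That 12 h comparison, added after the values had been seen, was the one that passed among the 55 made for the 5 genes, in a comparison where 2.36% of all probe sets passed. By array pattern angptl4 was nearest to hbegfa, a growth factor gene (Pearson r = 0.859), uchl1, a neuronal ubiquitin hydrolase gene (0.853), and thy1, a neuronal surface protein gene (0.851). With the group means taken out the correlation with hbegfa was 0.364, so that likeness lay mostly between groups.

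**Figure D3:**
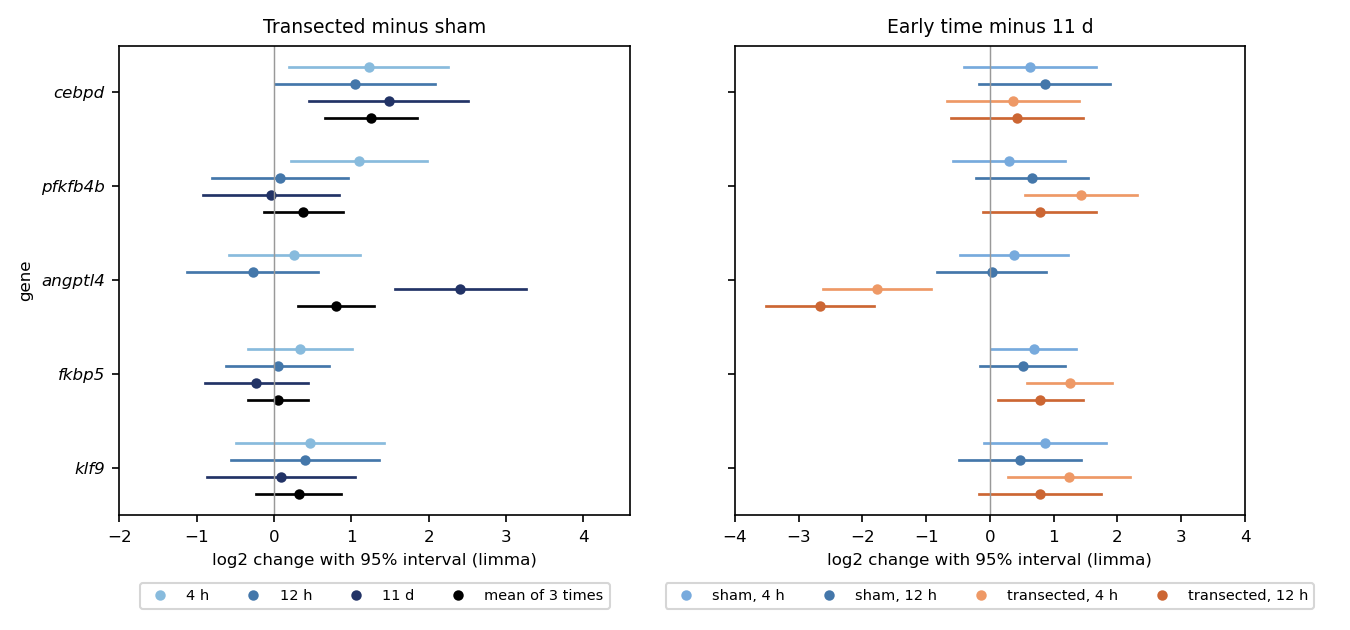
Log2 changes of the 5 genes with 95% intervals from limma, for transected minus sham (left, at 3 times and averaged) and for 4 h and 12 h minus 11 d within sham and within transected fish (right). The cebpd intervals on the left all lie above 0, and angptl4 stands out at 11 d (2.41). On the right cebpd, pfkfb4b, fkbp5 and klf9 lie above 0 in all 4 comparisons, though most of their intervals reach 0.

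None of the 5 genes passed at 4 h, where 0.0% of probe sets passed, but 2 (cebpd and pfkfb4b) had an unadjusted limma p under 0.05, against 2.27% of probe sets, and the same 2 did not overlap between treatments, against 2.67% of probe sets higher without overlap. At 12 h none passed (0.0258% of probe sets did), 1 gene had an unadjusted p under 0.05 (4.61% of probe sets), and none was free of overlap (4.57%, higher). At 11 d none passed (0.0452%), and cebpd and angptl4 had an unadjusted p under 0.05 (4.42%) and did not overlap (2.73%, higher). The same 2 had an unadjusted p under 0.05 for the mean of 3 times (4.01%), where none passed (0.0387%). For the effect at 11 d minus the mean of the early effects none passed (0.0323%), and angptl4 had an unadjusted p under 0.05 (3.53%).

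For time after sham surgery none of the 5 passed, at 4 h against 11 d (0.0% of probe sets), 12 h against 11 d (0.0387%) or 12 h against 4 h (0.0258%). At an unadjusted limma p under 0.05 there were 1 (fkbp5), 0 and 0 of them, against 5.17%, 8.42% and 5.8% of probe sets. None was higher without overlap at 4 h (2.77% of probe sets were) or 12 h (6.21%) than at 11 d. Between 12 h and 4 h the sham differences ran from -0.39 (klf9) to 0.36 (pfkfb4b). All 5 had a higher mean at both early times than at 11 d in sham fish, where 46.1% (4 h) and 45.5% (12 h) of genes not tied at the floor did. Among these values the 12 h difference of angptl4 (0.03) was -0.10 on the deposited scale. That angptl4 difference was -0.44 without sham replicate 2 at 12 h and -0.098 without sham replicate 1 at 11 d. The 4 h difference of pfkfb4b was negative without sham replicate 1 at 4 h. Over both treatments none passed (1.52%) and 4 had an unadjusted p under 0.05, 3 higher early and angptl4 lower, against 15.4% of probe sets. In transected fish, pfkfb4b, fkbp5 and klf9 were higher at 4 h than at 11 d without overlap, against 5.3% of probe sets, and fkbp5 and klf9 at 12 h, against 8.73%. angptl4 was lower without overlap at both times, against 4.55% and 8.9%. None passed for 4 h against 11 d (0.252%), where 4 genes had an unadjusted p under 0.05 (7.28%), or 1 (angptl4) in the fit without the dimmest 33.3% (0.503%). For 12 h against 11 d fkbp5 and angptl4 had an unadjusted p under 0.05 (15.6%).

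No difference was detectable in the receptor itself. The glucocorticoid receptor gene nr3c1 had means of 216.1, 226.8 and 249.2 in sham fish (4 h, 12 h, 11 d) and of 204.5, 285.3 and 197.6 in transected fish. Its averaged transection effect was -0.03 ± 0.20 and its early-minus-late difference over both treatments 0.06 ± 0.21 (limma adjusted p = 1 for both). A list of 13 measured genes held the receptor, its chaperones, co-regulators, hormone-converting enzymes and the gene pomca. Of these 13 none passed in any of the 11 comparisons. Over the mean of 3 times 5 were higher and 8 lower (38.5% higher, against 49.4% of all genes not tied, median -0.01 against 0.00).

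The one member of that list with an unadjusted limma p under 0.05 for the averaged transection effect was hsd11b2, whose enzyme inactivates cortisol. Of all probe sets 4.01% had such a p. Sham fish had means of 63.23, 48.34 and 48.8 (4 h, 12 h, 11 d) and transected fish 135.0, 82.27 and 94.21, a mean difference of 0.94 ± 0.31 (limma adjusted p = 0.89). The transected arrays at 4 h (110.7 to 187.1) lay above the sham arrays (42.14 to 91.1), as for 2.67% of all probe sets. At 12 h and 11 d the ranges overlapped. The chaperone gene fkbp4, which acts on the receptor in the opposite sense to fkbp5, differed between sham fish at 4 h and 11 d by -0.63 ± 0.29 (limma adjusted p = 0.84).

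The list of other glucocorticoid targets had 27 measured genes, 3 of them at the floor on every array. For sham fish, 17 were higher and 7 lower at 4 h than at 11 d (70.8% of those not tied were higher, against 46.1% of all genes not tied, median 0.24). At 12 h 18 were higher and 6 lower than at 11 d (75.0% against 45.5%, median 0.18), and the median of all genes was 0.00 in both. None passed in either, and 0 and 2 had an unadjusted limma p under 0.05, against 5.17% and 8.42% of probe sets. Over both treatments 20 were higher and 4 lower (83.3% against 49.4% of genes not tied, median 0.21). Of the 27 genes 1 passed, in a comparison where 1.52% of all probe sets passed. That gene was nfkbiab, an inhibitor of NF-kappaB signalling, which was 0.77 ± 0.16 higher early (limma adjusted p = 0.033), with means of 1333, 1168 and 963.1 in sham fish and 1623, 1337 and 654.0 in transected fish (4 h, 12 h, 11 d).

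Further targets of that list differed in the same direction without passing. The leucine zipper gene tsc22d3, the glucocorticoid-induced leucine zipper of mammals, was 0.54 ± 0.14 higher early (limma adjusted p = 0.067), with sham means of 321.2, 397.0 and 270.6 at 4 h, 12 h and 11 d. The stress gene ddit4, an inhibitor of mTOR signalling, was 1.08 ± 0.35 higher (adjusted p = 0.15). Not all classical targets did so, since the kinase gene sgk1 differed by -0.20 ± 0.11 (adjusted p = 0.40).

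For transection the same 27 genes had 17 higher and 7 lower over the mean of 3 times (median 0.09, against 0.00 for all genes). Of those not tied 70.8% were higher, against 49.4% of all genes not tied, and none passed. The largest difference there was igfbp1a, an insulin-like growth factor binding protein gene (0.60 ± 0.18, limma adjusted p = 0.76). The phosphatase gene dusp1 was 0.73 ± 0.30 higher after transection at 4 h (adjusted p = 1) and differed by -0.88 ± 0.30 at 11 d (adjusted p = 0.73).

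**Figure D4:**
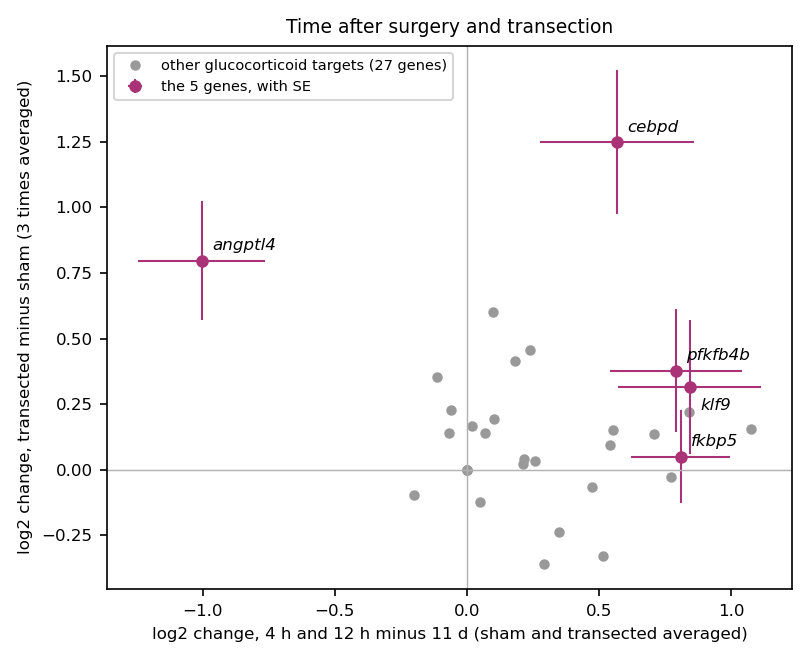
Log2 change between times (4 h and 12 h minus 11 d, sham and transected averaged, horizontal) against log2 change by transection (3 times averaged, vertical), for the 5 genes with SE bars (purple) and for 27 other glucocorticoid targets (grey). fkbp5 (0.81 and 0.05) lies along the time axis, cebpd (0.57 and 1.25) has the highest transection value, and angptl4 lies on the late side with a transection value of 0.80. Both angptl4 averages rest on the transected group at 11 d. Its separate transection effects were 0.26 (4 h), -0.28 (12 h) and 2.41 (11 d). In sham fish angptl4 was higher by 0.38 (4 h) and 0.03 (12 h) than at 11 d. Most grey points lie to the right of 0, and 17 of the 27 lie above 0 on the vertical axis.

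At 11 d, where cebpd and angptl4 were higher after transection, the summed signal of 19 microglia and leukocyte markers was 6727 to 7671 in transected and 4908 to 6001 in sham arrays, without overlap. Their mean log2 signal, which weights dim and bright markers alike, did overlap, at 6.46 to 6.73 against 6.24 to 6.59. In that comparison 13 of the 19 were higher and 6 lower (68.4% higher, against 47.0% of all genes not tied), and none passed. Of the 19, 2 had an unadjusted limma p under 0.05, against 4.42% of probe sets. The gene apoeb is counted both among these markers and among the radial glia and astrocyte markers, and bright genes weigh most in a sum. The 11 endothelial and pericyte markers summed to 1331 to 1750 after transection and 1962 to 2135 in sham fish. Of them 2 were higher and 8 lower (20.0% of those not tied higher, against the same 47.0%). All 12 erythrocyte markers were lower after transection, with sums of 7115 to 12150 against 8932 to 15870. Past the threshold was 1 of them, where 0.0452% of probe sets passed. Between early times and 11 d, over both treatments, 6 leukocyte markers were higher and 13 lower (31.6% higher, against 49.4% of all genes not tied). Of these 1 and 3 passed, where 1.52% of probe sets did. The leukocyte marker sums were 3763 to 7506 at 4 h, 4490 to 5307 at 12 h and 4908 to 7671 at 11 d. After transection at 11 d, 11 of 15 neuron markers were higher and 4 lower (2 higher with an unadjusted limma p under 0.05). Of 13 radial glia and astrocyte markers 7 were higher and 6 lower, and 1 of the lower ones passed. Of 6 oligodendrocyte and myelin markers 2 were higher and 4 lower. At 4 h 2 neuron markers were higher and 13 lower (13.3% higher, against 52.8% of all genes not tied), and none passed. No marker of these lists was at the floor on all arrays. The part of these cells in the results was not tested.

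Of 19 measured genes listed for the acute phase and STAT3 signalling, 10 were higher and 7 lower after transection at 11 d (median 0.23, against 0.00 for all genes). Of those not tied 58.8% were higher, against 47.0% of all genes not tied. None passed, and 3 higher and 1 lower had an unadjusted limma p under 0.05, against 4.42% of probe sets. At 4 h 15 were higher and 4 lower (78.9% of those not tied higher, against 52.8% of all genes not tied). The counts at 12 h were 13 and 5 (72.2% against 47.1%), and for the mean of 3 times 15 and 4 (78.9% against 49.4%). None passed there either. At 11 d transected fish had 740.2 of socs3b, a feedback inhibitor of cytokine receptors, against 133.4 in sham fish (2.47 ± 0.47, limma adjusted p = 0.13). The transcription factor gene stat3 had 219.9 against 75.35 (1.55 ± 0.56, adjusted p = 0.84). Beside angptl4, 14 of 20 measured genes of fatty acid oxidation and PPAR signalling were higher after transection at 11 d and 5 lower (median 0.13). That is 73.7% of those not tied, against 47.0% of all genes not tied, with none past the threshold.

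Hours of the day at which tissue was taken are not in the labels, and time after surgery and time of day cannot be told apart. The clock repressor gene ciarta had sham means of 54.03 at 4 h, 523.2 at 12 h and 57.29 at 11 d, and the clock activator gene bmal1a 268.3, 94.56 and 328.3. Between sham fish at 4 h and 11 d, ciarta differed by -0.08 ± 0.69 and bmal1a by -0.29 ± 0.56, while the clock repressor gene per2 differed by -1.33 ± 0.52, with means of 78.48 and 197.8, and the bZIP repressor gene nfil3-5 by -1.10 ± 0.47, with means of 64.24 and 137.2 (limma adjusted p = 0.84 for these 2). Of 28 clock genes, 1 was higher and 3 were lower in that comparison at an unadjusted limma p under 0.05, where 5.17% of probe sets had such a p, and none passed. For sham 12 h against 11 d, 6 were higher and 4 lower at such a p (8.42% of probe sets), and none passed. For sham 12 h against 4 h, 4 were higher and 2 lower (5.8%), and 1 passed (0.0258%). Over both treatments, 6 were higher early and 3 lower (15.4%), and 1 passed (1.52%). GAPDH ratios ran from 1.53 to 1.78 in sham arrays at 4 h and from 1.39 to 2.83 at 11 d. The part of time of day and of RNA quality in the differences between times was not tested.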

How the data were processed

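The authors deposited 1 table of probe-set intensity values on a linear scale for 18 arrays. The sources used here name no program for the probe-set summary. Per the labels' protocols, laser-captured tissue went through column RNA purification, amplification and biotin labelling. The 2% trimmed mean was 150.0 on 16 arrays and 100.4 and 92.63 on the replicate 3 arrays at 4 h, which had been scaled differently. Values of all 15617 probe sets were quantile normalized. The 115 control probe sets were then removed, and the remaining values were floored at 16 and put on the log2 scale. 2009 of the 15502 probe sets lay at the floor on all arrays.

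Each title gave its sample's group and replicate number. limma 3.58.1 in R 4.3.3 (lmFit, eBayes, 12 residual degrees of freedom, prior 0.51) fitted 6 group means. Nothing in the labels says which fish a sample came from, so p-values measure only the spread between these samples, which may be technical. Replicate numbers come from the titles. Deviations of same-numbered sham and transected arrays correlated at 0.268 to 0.638 at 4 h, -0.014 to 0.141 at 12 h and 0.244 to 0.665 at 11 d, and above the best other number in 8 of 9 pairs. All 3 pairs were thus over 0.1 at 4 h and 11 d but not at 12 h. Exact permutation tests, two-sided and unadjusted, covered 5 genes and 3 comparisons. An exact permutation of 3 arrays against 3 cannot go below p = 0.1, so single times were not permuted. On simulated data the fit for 11 d recovered 28%, 70% and 90% of probe sets with log2 changes of 1, 2 and 3, with 6 false calls.

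The platform's annotation gave 1 symbol to 10795 tested probe sets, several to 135 and none to 4572. 8723 of 8796 gene numbers were found in a RefSeq table, used for names only. The 5 genes and all gene lists were chosen with earlier results of these data known. The rule for naming took the 5 genes, 10 named glucocorticoid and cytokine genes (nr3c2 and per1a were not measured), up to 3 genes per list and comparison with the largest change at a mean signal over 32, and the 3 genes most correlated with each of the 5. ciarta and bmal1a were picked from the clock list and tsc22d3, sgk1, socs3b and stat3 from the named genes after their values had been seen. The alternatives tried were no further normalization, median scaling, floors of 1 and 32, the dimmest 33.3% of probe sets left out, a robust variance trend, the replicate number as a block and each array left out.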

Additional observations from a re-analysis of the deposited data

Results flagged for a closer look

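The estimated transection effect on angptl4 was larger at 11 d than the mean of 4 h and 12 h, by 2.42 ± 0.48 on the log2 scale. The difference itself was tested in limma and singled out for an unadjusted p under 0.05. That p was the 10th smallest of 15502 probe sets and did not pass after adjustment (limma adjusted p = 0.39, or 0.11 in the fit without the dimmest 33.3%). Without single arrays it ranged from 2.18 to 2.73. Groups of 3 arrays are too small for a test of single outlying arrays.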

How the results depend on the processing

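For the 5 genes, 55 comparisons were recomputed 1535 times. In 1484 of these the direction and the side of the threshold were kept, in 32 a difference that never passed changed sign, in 19 a difference passed that had not, and in none was a pass lost. The 19 concerned angptl4 and fkbp5. At 11 d the angptl4 difference passed with a floor of 32 (2.30), without the dimmest 33.3% of probe sets (2.41) and with pairs of equal replicate number as a block plus that filter (2.41), but not with those pairs alone (adjusted p = 0.30), so 1 of the 5 genes was counted there instead of none. Its difference between 4 h and 11 d in transected fish (-1.77 in both) and over both treatments (-0.88 and -1.0) passed with a floor of 32 and without the dimmest 33.3%. The floor of 32 clips several dim angptl4 arrays and so reduces the spread of this gene by construction. fkbp5 passed over both treatments with median scaling (0.96) and without the dimmest 33.3% (0.81). The number of the 5 genes passing over both treatments was then 1 with median scaling, 1 with a floor of 32 and 2 without the dimmest. Signs changed on the deposited scale for pfkfb4b at 11 d (0.00094), angptl4 between sham 12 h and 11 d (-0.10) and fkbp5 between sham 12 h and 4 h (0.045), and with median scaling at 12 h for pfkfb4b (-0.044) and fkbp5 (-0.057).

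With single arrays left out, the ranges for angptl4 were 2.19 to 2.72 for transected minus sham at 11 d, -0.65 to 0.19 at 12 h, -0.44 to 0.40 for sham 12 h minus 11 d, -0.82 to 0.015 for sham 12 h minus 4 h, -2.07 to -1.52 for transected 4 h minus 11 d and -1.16 to -0.90 for early minus late over both treatments. For fkbp5 they were -0.23 to 0.24 at 12 h, -0.049 to 0.12 for the mean of 3 times, -0.38 to 0.10 for sham 12 h minus 4 h and 0.66 to 0.92 for early minus late over both treatments. For klf9 they were -0.27 to 0.47 at 11 d, -0.11 to 0.67 at 12 h, -0.70 to 0.038 for the late minus early effect and -0.67 to 0.12 for sham 12 h minus 4 h. For pfkfb4b they were -0.30 to 0.37 at 11 d, -0.12 to 0.32 at 12 h, -0.019 to 0.71 for sham 4 h minus 11 d and -0.053 to 0.67 for sham 12 h minus 4 h, and for cebpd -0.071 to 0.80 for sham 12 h minus 4 h. Of the 5 genes, 0 to 1 passed over both treatments, for transected 4 h minus 11 d and for transected minus sham at 11 d. At 11 d angptl4 passed without sham replicate 1 at 12 h (limma adjusted p = 0.035), sham replicate 2 at 12 h (0.012) or transected replicate 3 at 11 d (0.029). Over both treatments fkbp5 passed without sham replicate 1 at 12 h (0.045) or sham replicate 3 at 11 d (0.039), and angptl4 without sham replicate 2 at 12 h (0.027) or transected replicate 3 at 11 d (0.031). Without both replicate 3 arrays of 11 d, 2 genes passed over both treatments, fkbp5 (0.82) and angptl4 (-1.14), and the sign changed for pfkfb4b (0.32) and fkbp5 (0.14) at 11 d and for the late minus early effect on klf9 (0.21).

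Counts over all 15502 probe sets moved more. At 4 h, 0 passed, and 2 with a floor of 32, 1 with a floor of 1 and 0 to 4 without single arrays. At 12 h, 4 passed, and 7 on the deposited scale, 0 with a floor of 1 or without the dimmest, 2 with pairs as a block (0 with the filter) and 4 to 29 without single arrays. At 11 d, 7 passed, and 14 with a floor of 32, 3 with a floor of 1, 15 without the dimmest, 4 with the number across times as a block, 43 with pairs and the filter and 6 to 21 without single arrays. For the mean of times, 6 passed, and 3 on the deposited scale, 0 with a floor of 1 or with pairs, 3 with the number as a block, 11 with pairs and the filter and 3 to 12 without single arrays. For the late minus early effect, 5 passed, and 3 on the deposited scale or without the dimmest, 0 with a floor of 1, 1 with pairs (2 with the filter) and 5 to 15 without single arrays. In sham fish, 0 passed for 4 h minus 11 d, with 2 (floor 32), 1 (floor 1) and 0 to 8 without single arrays. For sham 12 h minus 11 d 6 passed, with 0 (deposited scale), 0 (floor 1), 3 (number as a block) and 2 to 11 without single arrays. For sham 12 h minus 4 h 4 passed, with 0 in each of deposited scale, floor 1, no dimmest and number as a block, and 0 to 6 without single arrays. In transected fish, 39 passed for 4 h minus 11 d, with 11 (deposited scale), 65 (median scaling), 25 (floor 1) and 5 to 56 without single arrays. For transected 12 h minus 11 d 366 passed, with 97 (deposited scale), 174 (floor 1) and 116 to 479 without single arrays. Over both treatments 236 passed, with 64 (deposited scale), 75 (floor 1), 152 (number as a block) and 55 to 552 without single arrays. Without both replicate 3 arrays of 11 d, 28 passed at 11 d, 18 for the late minus early effect, 15, 30 and 1 for the sham comparisons (4 h minus 11 d, 12 h minus 11 d, 12 h minus 4 h), 137 and 678 for the transected ones (4 h and 12 h minus 11 d) and 1364 over both treatments. Without those of 4 h, 4 passed at 4 h, 2 for sham and 19 for transected 4 h minus 11 d, and 35 over both treatments. The causes were not tested.

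Same-numbered arrays deviated together at 4 h and 11 d and not clearly at 12 h. With pairs as a block 0 probe sets passed at 4 h and 6 at 11 d. Apart from the angptl4 result at 11 d with the filter, the block changed no call for the 5 genes. The block of pairs covered only transected minus sham and the late minus early effect, and no comparison between times was refitted with it. Low signal limits angptl4, whose arrays other than the transected ones at 11 d lay between 18.4 and 58.91, near the floor of 16.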
